A study of Mus musculus with 18 samples.

Results

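Wnt pathway genes were followed in preadipocytes, the precursors of fat cells, taken from the epididymal white fat of mice, across 6 groups of RNA sequencing libraries. The set held every gene symbol of the Wnt, Frizzled (Fzd), secreted frizzled-related protein (Sfrp), Dickkopf (Dkk) and R-spondin (Rspo) families, and Frzb, Wif1, Axin2, Lrp5, Lrp6, Lgr4, Lgr5, Tcf7, Lef1 and Ctnnb1. The rule used symbols and no measured value, though it was set with earlier results of these data known. It gave 43 symbols of 17267 in the deposited tables, with 42 of 17001 in undifferentiated cells and 36 of 15482 in differentiated cells. By role they were 14 ligands, 10 Frizzled receptors, 2 co-receptors, 3 R-spondins, 2 R-spondin receptors, 8 secreted antagonists, 3 nuclear effectors and the feedback target Axin2. Family names placed all Sfrp and Dkk genes among the antagonists, including Dkk3, which encodes a divergent Dickkopf protein.

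All cells were from wild-type mice, and each group had 3 libraries. CD mock cells came from mice on a control diet and received no cytokine. The TGF-b1 group received transforming growth factor beta 1, and the SB431542 group received TGF-b1 plus SB431542, a small molecule that blocks the kinase of the type I TGF-b receptor. Both used cells of control diet mice. HFD mock cells came from mice on a high fat diet. Itga5-High and Itga5-Low cells were sorted with an antibody to CD49e, the integrin alpha 5 protein encoded by Itga5, and then taken through adipogenic differentiation in culture. The sources used here give no strain, sex or age of the mice and no doses or times of treatment. Nor do the labels say that replicates came from different animals or dishes, so p-values speak only of library-to-library spread, which may be technical.

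Wnt proteins are secreted lipid-modified ligands that bind Frizzled receptors. Together with the co-receptors Lrp5 and Lrp6 they stop the destruction of beta-catenin, the product of Ctnnb1, which then acts with Tcf and Lef proteins on target genes such as Axin2. Sfrp proteins, Frzb and Wif1 bind the ligands outside the cell, most Dickkopf proteins act on the co-receptors, and R-spondins bind Lgr receptors and keep Frizzled receptors at the surface. Ligands such as Wnt5a and Wnt11 mainly act through branches that do not need beta-catenin. In fat cell precursors, beta-catenin signalling is known to hold back differentiation into adipocytes.

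Levels are given in CPM, a gene's count relative to its library total after TMM scaling between libraries, as mean ± SD over 3 libraries, and log2 fold changes are given ± SE. A gene was called higher or lower at an adjusted p under 0.05 in the quasi-likelihood test of edgeR, with Benjamini-Hochberg adjustment over all genes tested. Total counts per library ranged from 11154449 to 17288608. Preadipocyte markers were present in all 6 groups, with Pdgfra, a receptor gene of these precursors, between 150.3 CPM with TGF-b1 and 486 CPM in CD mock. Adipoq, which encodes adiponectin of mature fat cells, was at 257 and 369 CPM in Itga5-High and Itga5-Low cells and at 3.99 CPM in CD mock. The undifferentiated groups were not alike in this respect. All 7 adipocyte markers tested were higher in the SB431542 group than in CD mock, beside 30.6% of all genes, with a median of 2.81 log2. The sort was on CD49e protein before differentiation. After it, Itga5 RNA was at 472 ± 8.82 CPM in Itga5-High and 329 ± 4.68 CPM in Itga5-Low cells, which does not measure the purity of the sort. Leptin was absent from both tables. In bulk RNA of this kind, fewer cells of a type and less RNA per cell cannot be told apart.

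Levels of different genes were compared per kilobase of transcript (counts per kilobase, divided by the library total in place of TMM scaling). On that scale the highest levels in CD mock were those of Ctnnb1 at 246 ± 3.8, Sfrp1 at 141 ± 1.02 and Sfrp2 at 43.7 ± 2.69. With TGF-b1 the order was Ctnnb1, Sfrp1 at 55.8 ± 1.09 and Fzd2 at 50.6 ± 0.84, and with SB431542 it was Ctnnb1, Sfrp2 at 95.5 ± 1.46 and Sfrp1 at 50.8 ± 0.922. In HFD mock the levels of Fzd1 at 32.5 ± 0.464 and Fzd2 at 32.2 ± 1.52 followed Ctnnb1 and Sfrp1 and did not differ beyond their spread. In differentiated cells Sfrp1 and Sfrp2 lay above Ctnnb1, with Sfrp1 at 727 ± 4.04 and Sfrp2 at 389 ± 1.95 in Itga5-Low cells. In Itga5-High cells these were Sfrp1 at 291 ± 2.84 and Sfrp2 at 275 ± 3.22. The tables of undifferentiated and differentiated cells were fitted separately, so levels across them are a description only.

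The promoters of a pair of members with large changes, Sfrp2 and Wnt11, are shown because they hold short motifs of the pathways at issue. RefSeq's promoter table on GRCm38.p6 held 28 of the 43 members, with 36 promoters in all, and the 250 bases before each start site were searched on both strands. The TCF and LEF motif, CTTTGAT or CTTTGAA, was in 2 of the 36 promoters (Wnt11 and Wnt5b) and in 7.48% of all 32851 promoters. The short Smad motif CAGACA was in 3 of the 36 (Lef1, Sfrp2 and Wnt7a) and in 17.1% of all. The Lef1 promoter that holds it lies 43503 bases from the nearest start of a deposited Lef1 transcript, and the promoters at the deposited Lef1 starts had no match. The AP-1 motif TGAGTCA was in 1 of the 36 (a further start of Wnt5b) and in 4.46% of all, and the Smad palindrome GTCTAGAC was in 0 of the 36 and in 0.167% of all. In the sequences the capitals mark the match, CAGACA read on the opposite strand in Sfrp2 and CTTTGAT on the opposite strand in Wnt11. A match is a description of the sequence and not evidence of binding. Both lie on the plus strand, just before the first exon, and are written 5′ to 3′.
Sfrp2, chr3:83766071-83766320: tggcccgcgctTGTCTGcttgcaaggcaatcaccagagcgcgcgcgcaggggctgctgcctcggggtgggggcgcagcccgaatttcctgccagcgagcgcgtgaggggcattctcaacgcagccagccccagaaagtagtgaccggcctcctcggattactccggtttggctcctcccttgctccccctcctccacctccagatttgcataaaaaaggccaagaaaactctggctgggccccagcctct
Wnt11, chr7:98834862-98835111: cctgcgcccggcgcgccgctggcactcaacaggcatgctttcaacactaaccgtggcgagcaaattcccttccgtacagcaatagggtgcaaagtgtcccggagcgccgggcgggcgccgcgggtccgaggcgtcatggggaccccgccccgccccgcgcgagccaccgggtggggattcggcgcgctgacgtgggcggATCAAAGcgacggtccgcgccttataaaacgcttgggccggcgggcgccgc

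TGF-b1 shifted the set in both directions. Secreted antagonists, Wnt4, Fzd1, Rspo1 and Axin2 were lower, and the ligands Wnt2, Wnt5a, Wnt9a and Wnt11 and the receptor Fzd2 were higher. SB431542 was set against TGF-b1 alone to ask which members differed with the inhibitor, and against mock to ask where the treated cells then stood. No group received SB431542 without TGF-b1, so block of the added cytokine and other effects of the inhibitor cannot be told apart. These comparisons share libraries, since the TGF-b1 libraries serve in both comparisons with that group and the mock libraries in both comparisons with mock, so they are given side by side and not as support for each other.

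Of the 33 members tested in undifferentiated cells, 12 rose and 16 fell with TGF-b1 against mock and 5 were not called. Over all 14078 genes 33.4% were called higher and 34.2% lower. By at least 1 log2 unit, 7 members rose and 11 fell, beside 3.59% and 11.2% of all genes. The median change of the members was -0.22 log2, beside -0.0165 for all genes. With SB431542 against TGF-b1 alone, 15 members were higher, 13 were lower and 5 were not called, beside 41.4% and 38.3% of all genes. A change of 1 log2 unit or more was found upward in 11 and downward in 9, beside 18.1% and 7.66% of all genes, and the median was 0.07 beside 0.0375. With SB431542 against mock, 9 were higher, 14 lower and 10 not called, beside 30.6% and 30.4%. In that comparison 3 members were higher and 3 lower by at least 1 log2 unit, beside 7.83% and 2.84%, with a median of -0.14 beside 0.0063. The 9 members of the undifferentiated table that were not tested had low counts in every group: Wnt1, Wnt6, Wnt7a, Wnt7b, Wnt10a, Fzd10, Rspo2, Dkk2 and Sfrp5.

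**Figure D1:**
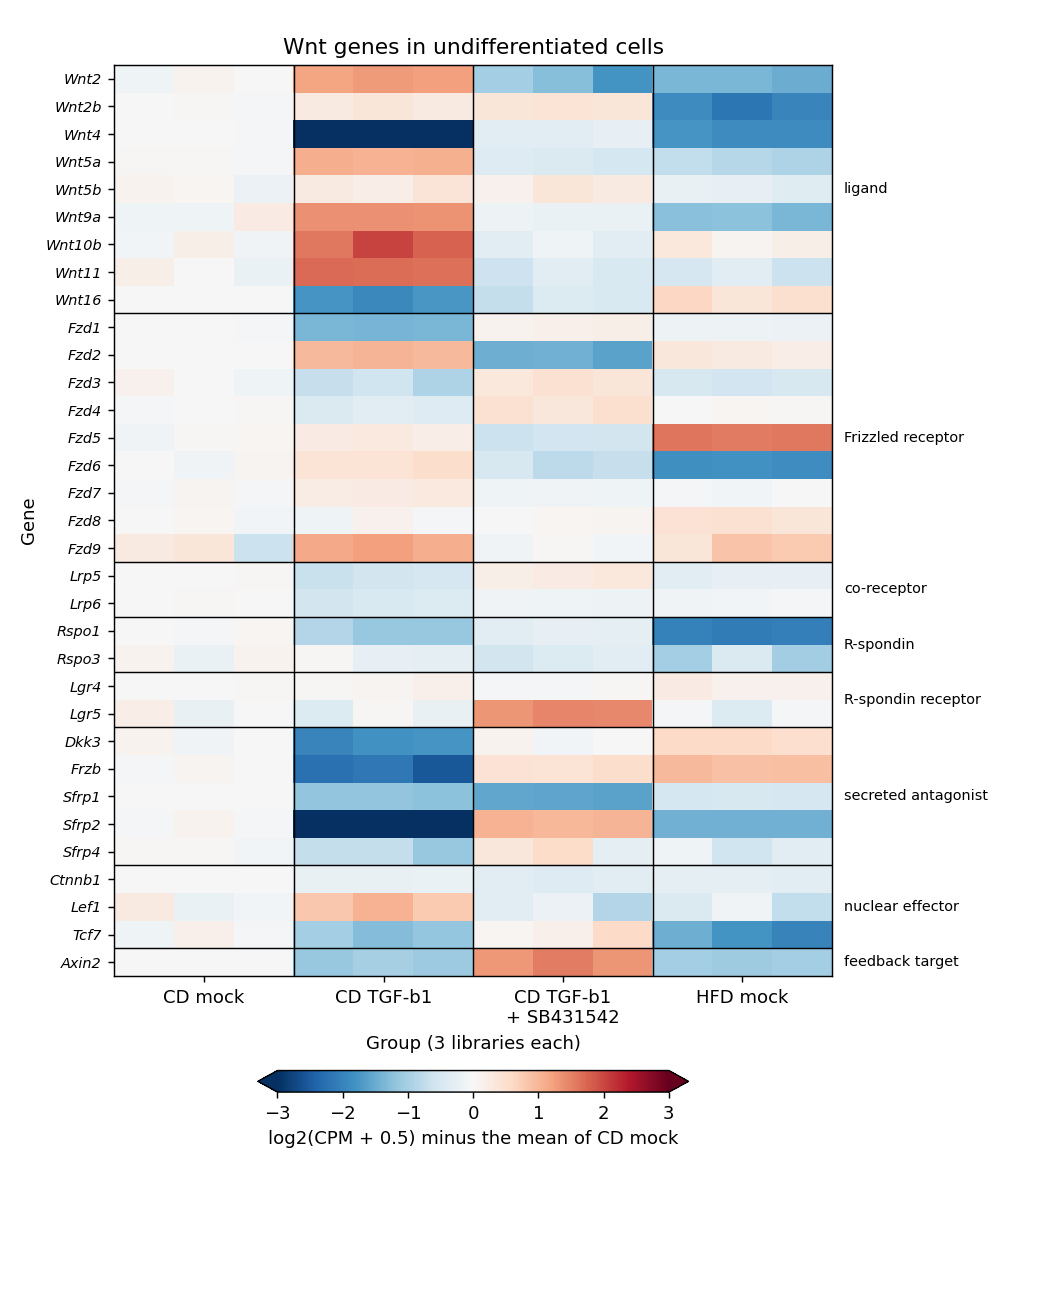
Heat map of the 33 tested members (rows, grouped by role) in the 12 undifferentiated libraries (columns). Colour is log2(CPM + 0.5) minus the mean of CD mock, and the scale stops at 3 units either way, which Wnt4 and Sfrp2 exceed with TGF-b1. The secreted antagonists and Wnt4 are blue with TGF-b1.

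Among the secreted antagonists all 5 tested members fell with TGF-b1, with a median of -1.97 log2, and 4 of the 5 were higher with SB431542 than with TGF-b1 alone. Of all genes 34.2% were lower with TGF-b1, with a median of -0.0165 log2, and 41.4% were higher with SB431542 against TGF-b1. Sfrp2, which lies on chromosome 3 from 83766321 to 83774314 (mm10, plus strand), encodes a secreted protein that binds Wnt ligands. Its level was 82.3, 91.7 and 82.8 CPM in the CD mock libraries, 1.45, 0.887 and 1.35 with TGF-b1 and 176, 171 and 174 with SB431542. All mock libraries lay far above all TGF-b1 libraries, and all SB431542 libraries lay above mock. The log2 change was -6.10 ± 0.21 with TGF-b1 (adjusted p = 1.68e-40), where its 3 libraries held 47 counts. It was 7.12 ± 0.21 with SB431542 against TGF-b1 (adjusted p = 4.84e-47) and 1.01 ± 0.0327 against mock.

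Sfrp1, a close relative of Sfrp2 on chromosome 8 from 23411502 to 23449632, fell as well and was lower still with SB431542. It was at 602, 603 and 609 CPM in mock, 267, 268 and 259 with TGF-b1 and 205, 203 and 197 with SB431542. None of the groups overlapped. Sfrp1 changed by -1.20 ± 0.0231 log2 with TGF-b1, by -0.39 ± 0.0271 with SB431542 against TGF-b1 and by -1.58 ± 0.0243 against mock. Frzb, a further frizzled-related protein, was at 8.35, 9.2 and 8.57 CPM in mock, 1.45, 1.6 and 1.08 with TGF-b1 and 12, 11.7 and 12.8 with SB431542, the SB431542 libraries lying above mock by 0.47 ± 0.10 log2. Dkk3, a divergent Dickkopf protein, was at 30.8, 26.5 and 28.5 CPM in mock, 6.91, 7.8 and 7.96 with TGF-b1 and 30.9, 26.8 and 28.4 with SB431542. Its mock and SB431542 libraries overlapped, with a difference of 0.01 ± 0.0642 log2 that was not called (adjusted p = 0.861), and both lay above TGF-b1, by 3.75-fold for mock. Sfrp4 was scarce, with 28 counts over the mock libraries, 7 with TGF-b1 and 40 with SB431542. It was lower with TGF-b1 than with either mock (adjusted p = 0.00201) or SB431542 (adjusted p = 7.57e-05).

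**Figure D2:**
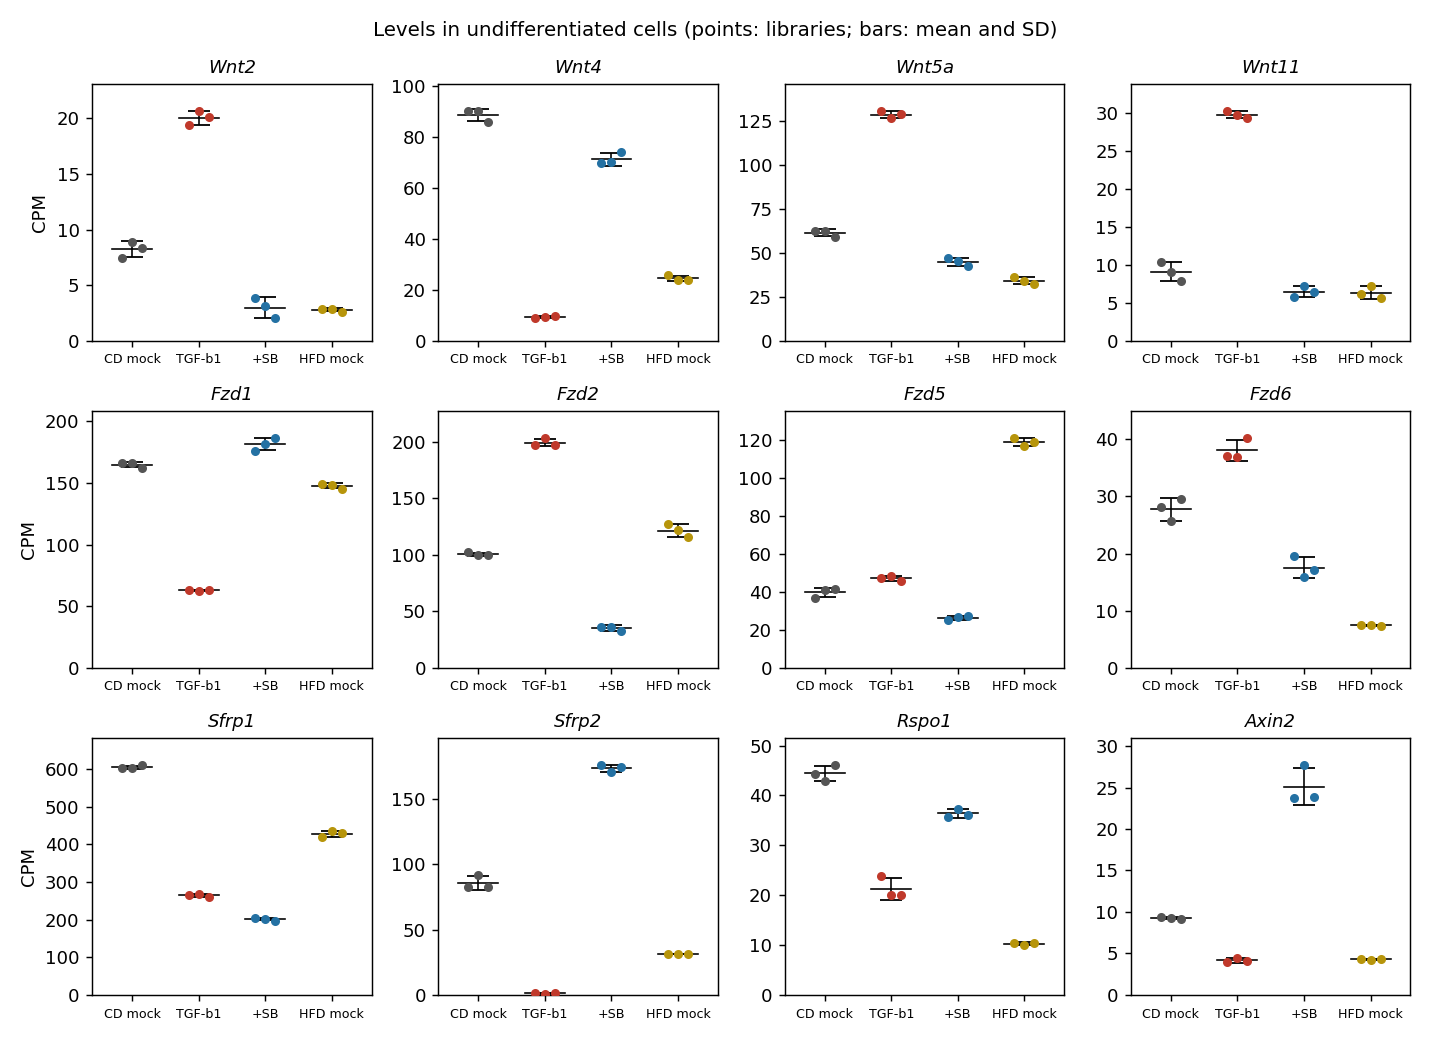
Levels of 12 members in the 4 undifferentiated groups (CPM, linear axis from 0), with 1 point per library and bars for mean and SD (n = 3). Sfrp2 lies near 0 with TGF-b1, Sfrp1 is lowest with SB431542, and Axin2 is highest with SB431542.

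Among the ligands 6 of the 9 tested rose with TGF-b1, 2 fell and 1 was not called, beside 33.4% of all genes higher and 34.2% lower. Wnt4, on chromosome 4 from 137277635 to 137299501, moved most among those that fell. It was at 90.3, 90.3 and 86.1 CPM in mock, 8.7, 9.31 and 9.71 with TGF-b1 and 69.7, 70.2 and 74.3 with SB431542. The TGF-b1 libraries stood apart from the others, 9.58-fold below mock (-3.26 ± 0.0762 log2, adjusted p = 3.37e-38), and the SB431542 libraries lay -0.32 ± 0.0373 log2 from mock. Wnt16 also fell, with 4.04, 4.17 and 4.11 CPM in mock, 0.853, 0.709 and 0.876 with TGF-b1 and 2.31, 2.94 and 2.84 with SB431542, the TGF-b1 libraries again being the lowest (-2.31 ± 0.28 log2 from mock).

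Wnt5a, a ligand that mainly acts without beta-catenin, lies on chromosome 14 from 28505473 to 28527447. It was at 62.2, 62.5 and 58.9 CPM in mock, 130.4, 126 and 129 with TGF-b1 and 46.8, 44.9 and 42.4 with SB431542. It thus went up 2.1-fold with the cytokine and lay below mock with the inhibitor (-0.45 ± 0.0455 log2). The deposited counts divide Wnt5a between 2 start sites. The upstream start took 64.0% to 66.4% of its counts in the mock libraries, 64.9% to 85.4% with TGF-b1 and 42.6% to 68.7% with SB431542, ranges that overlapped between mock and either treatment. Wnt11, which shares that beta-catenin independent action, was at 10.4, 9.06 and 7.88 CPM in mock, 30.3, 29.8 and 29.4 with TGF-b1 and 5.7, 7.14 and 6.46 with SB431542. It rose 3.28-fold with TGF-b1 (1.71 ± 0.0952 log2, adjusted p = 4.2e-21).

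Wnt2, a ligand of the beta-catenin branch, followed the same order. It was at 7.47, 8.92 and 8.31 CPM in mock, 19.4, 20.7 and 20.1 with TGF-b1 and 3.82, 3.09 and 1.998 with SB431542, with no overlap between the groups. It changed by 1.28 ± 0.11 log2 with TGF-b1 and by -1.47 ± 0.16 with SB431542 against mock. Wnt9a was at 11.8, 11.6 and 15.4 CPM in mock, 34.1, 33.7 and 33.5 with TGF-b1 and 11.5, 11.1 and 11.1 with SB431542. It rose 2.62-fold with TGF-b1, and SB431542 was not called different from mock (adjusted p = 0.0788), though all its libraries lay below mock. It was called lower without CD mock replicate 1 (adjusted p = 0.0395) or without CD mock replicate 2 (adjusted p = 0.0239). Wnt10b, a ligand known to restrain fat cell formation, was scarce. It held 5 counts over the mock libraries, 63 with TGF-b1 and 1 with SB431542. TGF-b1 over SB431542 came to a ratio of 67.4 with a 95% counting interval of 11.7 to 2704, and without SB431542 replicate 2, which held the only count, the fitted difference went from -5.61 to -7.44 log2. Wnt2b differed little with TGF-b1, at 26.9 ± 0.938 CPM in mock and 33.4 ± 1.36 with TGF-b1 (0.30 ± 0.0604 log2). Wnt5b was not called in any of the comparisons.

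The Frizzled receptors split. With TGF-b1, 5 of the 9 tested rose, 3 fell and Fzd8 was not called, beside 33.4% of all genes higher and 34.2% lower. Their median was 0.24 log2. Fzd1 was at 166, 166 and 162 CPM in mock, 62.9, 62.1 and 63.4 with TGF-b1 and 176, 182 and 186 with SB431542. Fzd2 was at 102, 99.8 and 99.5 CPM in mock, 197, 203 and 197 with TGF-b1 and 36.3, 36.4 and 32.5 with SB431542. These receptors therefore took opposite courses: Fzd1 changed by -1.39 ± 0.0352 log2 and Fzd2 by 0.99 ± 0.032 with TGF-b1. With SB431542 against TGF-b1, Fzd1 changed by 1.53 ± 0.0345 and Fzd2 by -2.50 ± 0.0445. With the inhibitor Fzd2 lay below mock, at -1.51 ± 0.0477 log2, and Fzd1 slightly above it, at 0.14 ± 0.0264.

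Fzd6 and Fzd3 were split in the same way. Fzd6 was at 28.1, 25.6 and 29.5 CPM in mock, 37.1, 37 and 40.2 with TGF-b1 and 19.6, 16 and 17.1 with SB431542, so the TGF-b1 libraries were highest. Fzd3 was at 14.7, 13.4 and 12.3 CPM in mock, 8.19, 8.69 and 6.81 with TGF-b1 and 16.7, 18.5 and 17.4 with SB431542, so the TGF-b1 libraries were lowest. Fzd4 was lower with TGF-b1 (-0.38 ± 0.045 log2) and Fzd5 and Fzd7 were higher, by 0.24 ± 0.0495 and 0.25 ± 0.0345. With total counts Fzd8 was called lower (-0.17 log2, adjusted p = 0.0356). The call for Fzd5 was lost when libraries were scaled by total counts (0.09 log2, adjusted p = 0.0995). Fzd9 had 12 counts over the mock libraries, 46 with TGF-b1 and 10 with SB431542, and was called higher with TGF-b1 (adjusted p = 0.000381). Both co-receptors fell with TGF-b1, Lrp5 from 64.9 ± 1.2 to 43.5 ± 2.55 CPM. Lrp6 was at 151, 155 and 149.6 CPM in mock, 104, 110.3 and 114 with TGF-b1 and 140.0, 139.8 and 137 with SB431542, the TGF-b1 libraries lying below both other groups.

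Of the R-spondin arm, Rspo1 was at 44.4, 42.8 and 46 CPM in mock, 23.9, 20.04 and 20.02 with TGF-b1 and 35.8, 37.4 and 36 with SB431542. It fell by 1.06 on the log2 scale with TGF-b1 and lay below mock with SB431542 as well (-0.28 ± 0.0539 log2). Rspo3 was not called with TGF-b1 or between SB431542 and TGF-b1 (7.31 ± 0.941 against 6.49 ± 0.881 CPM in mock and TGF-b1, adjusted p = 0.325). With SB431542 it was called lower than mock (adjusted p = 0.0105), a call lost without SB431542 replicate 1 (adjusted p = 0.061) and with total counts (-0.34 log2, adjusted p = 0.0515). The receptor Lgr4 was called in none of these comparisons. It was called lower with SB431542 than with TGF-b1 without TGF-b1 replicate 1 (adjusted p = 0.0337), without SB431542 replicate 3 (adjusted p = 0.036) and with RLE size factors (adjusted p = 0.0333). Its difference between SB431542 and TGF-b1 nevertheless changed sign with total counts, from -0.12 ± 0.0613 log2 to 0.14 (adjusted p = 0.0405). Lgr5, a receptor that is itself a target of beta-catenin in several tissues, had 6 counts in mock, 3 with TGF-b1 and 51 with SB431542. The ratio of SB431542 to TGF-b1 was 15.9 with a 95% counting interval of 5.14 to 79.6. Lgr5 was also above mock (adjusted p = 3.52e-06). Without TGF-b1 replicate 2 the fitted difference went from 3.84 to 4.75 log2.

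Axin2, a negative regulator of the pathway and a standard target of beta-catenin, lies on chromosome 11 from 108920349 to 108950781. It was at 9.4, 9.27 and 9.17 CPM in mock, 3.92, 4.43 and 4.11 with TGF-b1 and 23.7, 27.7 and 23.9 with SB431542. The 3 groups did not overlap, and the SB431542 libraries were the highest. Axin2 changed by -1.16 ± 0.14 log2 with TGF-b1 (adjusted p = 2.65e-10), by 2.59 ± 0.12 with SB431542 against TGF-b1 and by 1.43 ± 0.0925 against mock (adjusted p = 1.77e-18). Ctnnb1 itself moved little, at 836, 847 and 859 CPM in mock, 726, 724 and 734 with TGF-b1 and 673, 651 and 671 with SB431542. Its change was -0.22 ± 0.0214 log2 with TGF-b1. Its difference between SB431542 and TGF-b1 turned with the scaling, from -0.13 ± 0.0218 to 0.13 log2 with total counts. Tcf7, which encodes a partner of beta-catenin, was at 4.22, 5.24 and 4.54 CPM in mock, 2.05, 1.6 and 1.82 with TGF-b1 and 4.83, 5.22 and 7.22 with SB431542. All TGF-b1 libraries lay below the others, -1.36 ± 0.23 log2 from mock. Lef1, a further partner, went the other way at a low level, from 21 counts over the mock libraries to 55 with TGF-b1 (adjusted p = 0.00172) and 12 with SB431542.

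**Figure D3:**
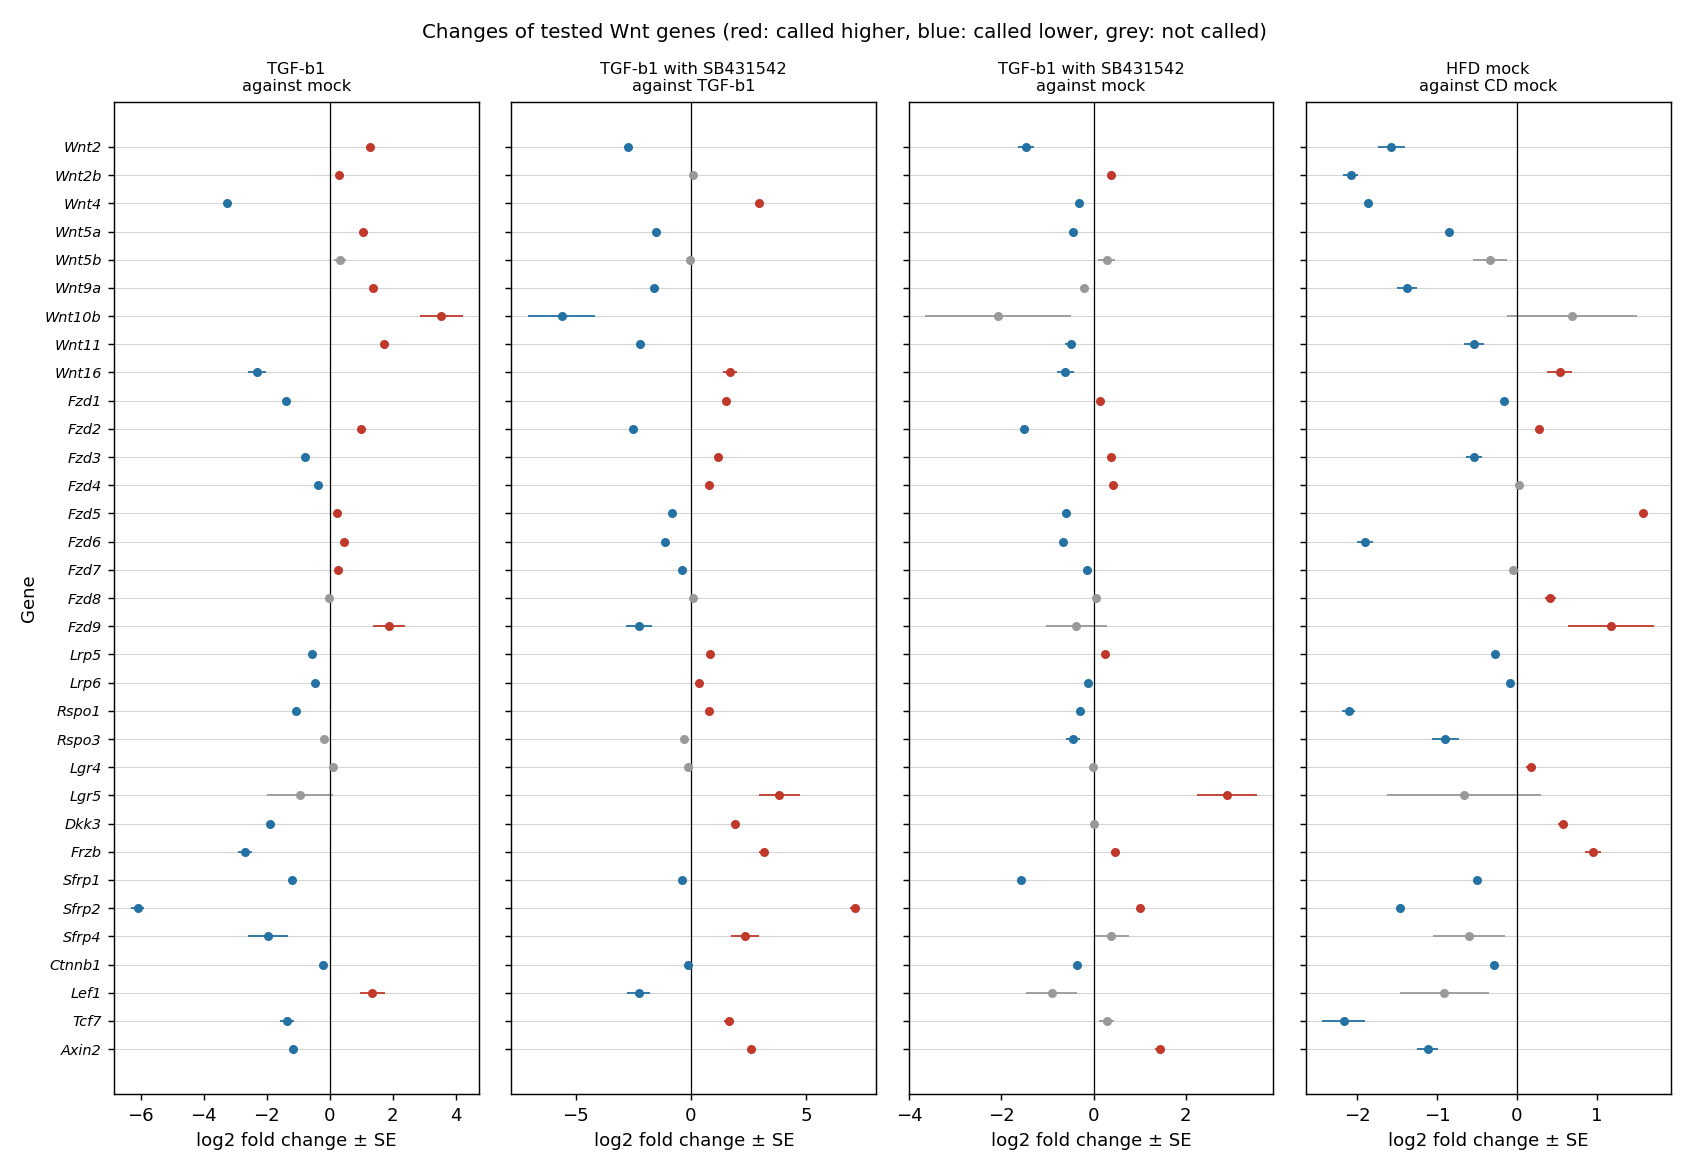
Log2 fold change ± SE (x axis) of the 33 tested members (rows) in the 4 comparisons of undifferentiated cells, in red where called higher, blue where called lower and grey where not called. The x axes differ between panels. Sfrp2 has the largest change with TGF-b1 at -6.10, and Fzd5 has the largest rise in the diet comparison at 1.58.

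Other genes of the pathway were counted from lists of known components. Beside these counts stand the shares of all genes, 33.4% higher and 34.2% lower with TGF-b1. For SB431542 they were 41.4% and 38.3% against TGF-b1 and 30.6% and 30.4% against mock. Feedback inhibitors, which like Axin2 dampen the signal, were higher in 3 and lower in 5 of 8 tested with TGF-b1. Nkd1 was at 31.9 ± 2.23 CPM in mock, 7.5 ± 0.594 with TGF-b1 and 56.9 ± 1.41 with SB431542, and Apcdd1 was at 25.8 ± 0.673, 8.22 ± 1.64 and 54.8 ± 0.915. Both therefore had Axin2's order of groups, with SB431542 above mock by 0.84 ± 0.0527 log2 for Nkd1 and 1.09 ± 0.0606 for Apcdd1. In that comparison with mock the list had 3 higher, 4 lower and 1 not called, with Dact1, an inhibitor that binds Dishevelled, at 12.8 ± 1.05 against 32.7 ± 0.581 CPM. Against TGF-b1 alone, SB431542 gave 4 higher, 3 lower and 1 not called.

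Nuclear partners fell in 8 of 10 with TGF-b1, with 1 higher and 1 not called, and with SB431542 against TGF-b1 8 were higher, 1 was lower and 1 was not called. Tle3, a corepressor, was at 157 ± 3.73 CPM in mock, 81.3 ± 0.539 with TGF-b1 and 132 ± 1.86 with SB431542. Tcf7l1, mostly a repressor of Wnt targets, was at 41.4 ± 1.47, 21.2 ± 0.95 and 52 ± 0.631 CPM. Against mock, SB431542 gave 5 higher, 4 lower and 1 not called. With TGF-b1, 7 of 9 planar polarity genes, which belong to a branch without beta-catenin, fell, and the other 2 were not called. Prickle2 was at 41.1 ± 0.925 CPM in mock and 16.2 ± 1.5 with TGF-b1, and the cadherin gene Celsr1 at 11.9 ± 0.462 and 2.25 ± 0.66. With SB431542 this list had 7 higher, 1 lower and 1 not called against TGF-b1, and 3 higher, 2 lower and 4 not called against mock.

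Further receptors and co-receptors mostly rose with TGF-b1, in 6 of 7, while Ptk7 fell, from 165 ± 3.64 to 106 ± 4.72 CPM. Gpc4, a glypican, was at 173 ± 2.81 CPM in mock, 301 ± 3.53 with TGF-b1 and 71.9 ± 1.8 with SB431542. Ror1, a receptor for Wnt5a, was at 48.8 ± 2.82 CPM with TGF-b1 and 22.6 ± 0.719 with SB431542. Against TGF-b1, SB431542 gave 1 higher and 6 lower, and against mock 1 higher, 5 lower and 1 not called. Wls, the carrier that ligands need for secretion, rose by 0.22 ± 0.0248 log2 with TGF-b1, and Porcn, which adds their lipid, by 0.67 ± 0.20. With SB431542 Wls was lower than with TGF-b1 (-0.52 ± 0.0254) and than in mock (-0.30 ± 0.0262), and Porcn was not called in either. Cytoplasmic transducers were mixed, with 4 higher, 4 lower and 2 not called of 10 with TGF-b1. Against TGF-b1 SB431542 gave 3, 6 and 1 in that order, and against mock 1, 5 and 4.

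Markers of other cell types moved with these treatments. Of all genes 33.4% were higher and 34.2% lower with TGF-b1, and 41.4% and 38.3% with SB431542 against TGF-b1. The summed level of 10 mesothelial markers was 2570.1 to 2602 CPM in the mock libraries, 708 to 723 with TGF-b1, where 9 fell and 1 was not called, and 2321 to 2330.2 with SB431542, where 8 were higher and 2 lower than with TGF-b1. The 9 endothelial markers summed to 389.5 to 408 CPM in mock, 177 to 181 with TGF-b1, where 8 fell and 1 rose, and 858 to 877 with SB431542, where 8 were higher and 1 lower than with TGF-b1. Of 7 adipocyte markers all 7 fell with TGF-b1 and all 7 were higher with SB431542, with sums of 189 to 194, 49.7 to 50.2 and 947 to 952 CPM in mock, TGF-b1 and SB431542. The 8 macrophage markers summed to 488 to 499, 533 to 549.6 and 971 to 989 CPM in that order. With TGF-b1 2 of them rose, 4 fell and 2 were not called, with a median of -0.17 log2, and with SB431542 7 were higher and 1 lower than with TGF-b1. The 6 pericyte markers summed to 299 to 314, 371 to 373 and 597 to 614 CPM. Although their sum was higher with TGF-b1, 5 of them fell and 1 rose, with a median of -0.85 log2, and with SB431542 4 were higher and 2 lower than with TGF-b1. Preadipocyte markers fell in 8 of 10 with TGF-b1 and rose in 2, with a median of -2.50 log2. Their sum was nevertheless higher with TGF-b1, at 18469 to 18502 CPM against 16972.1 to 17048.5 in mock. With SB431542, 8 of these 10 were higher and 2 lower than with TGF-b1, while their sum was lower, at 9863 to 9947 CPM. Among the adipocyte markers Retn had 0 counts over the TGF-b1 libraries and Adipoq 5, while no macrophage, endothelial, mesothelial or pericyte marker was at 0 in any undifferentiated library. Their part in the changes of the Wnt genes was not tested.

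The comparison of HFD mock with CD mock asked how cells from mice on the high fat diet differed from those of control diet mice. Most ligands, Rspo1, Sfrp2, Fzd6, Tcf7 and Axin2 were lower in cells of HFD mice, while Fzd5 was 2.99-fold higher and Frzb and Dkk3 were higher. The CD mock libraries are the ones used above as the baseline of TGF-b1. Of the 33 members tested, 8 rose, 18 fell and 7 were not called, beside 27.1% of all genes higher and 26.6% lower. By at least 1 log2 unit, 2 rose and 9 fell, beside 4.37% and 7.37%. The median of the members was -0.50 log2, beside -0.00769 for all genes.

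Ligands fell in 6 of 9, with Wnt16 higher and Wnt5b and Wnt10b not called, beside 26.6% of all genes lower and 27.1% higher. Wnt2b, a ligand of the beta-catenin branch, was at 27.2, 27.7 and 25.9 CPM in the CD libraries and 6.9, 5.56 and 6.49 in the HFD libraries. Wnt4 was at 25.6, 23.9 and 23.8 CPM in HFD, against its CD values near 88.9 given above. Neither gene had any overlap between the diets, and they changed by -2.09 ± 0.0954 and -1.86 ± 0.0506 log2. Wnt2 was at 2.85, 2.86 and 2.61 CPM and Wnt9a at 5.05, 5.15 and 4.65 CPM in HFD, below all CD libraries (-1.58 ± 0.17 and -1.38 ± 0.12 log2). The beta-catenin independent ligands were lower as well: Wnt5a was at 36.3, 33.7 and 32 CPM and Wnt11 at 6.19, 7.19 and 5.57 CPM, changes of -0.85 ± 0.0491 and -0.53 ± 0.12. The upstream start of Wnt5a took 74.6% to 84.5% of its counts in HFD, above all CD mock libraries, a share that was not tested. Wnt16 rose by 0.54 ± 0.16 log2, with 4.04, 4.17 and 4.11 CPM in CD and 6.54, 5.39 and 5.92 in HFD.

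Among the R-spondins, Rspo1 was at 10.5, 9.97 and 10.4 CPM in HFD against 44.4 ± 1.6 in CD (-2.11 ± 0.0786 log2, adjusted p = 9.43e-28). Rspo3 was lower too, at 3.34, 5.23 and 3.24 against 7.91, 6.23 and 7.8 CPM. Rspo2 was too scarce to be tested, with 22 counts in HFD and 3 in CD, a ratio of 6.74 with a 95% counting interval of 2.02 to 35.2. Lgr4 was called higher by 0.17 ± 0.0608 log2, a call lost with total counts (adjusted p = 0.206), with DESeq2 and without HFD replicate 1.

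Of the Frizzled receptors 4 rose, 3 fell and 2 were not called, beside 27.1% of all genes higher and 26.6% lower. Fzd5, on chromosome 1 from 64730558 to 64737750, was at 36.7, 40.8 and 41.5 CPM in CD and 121, 117 and 119 in HFD, all HFD libraries lying above all others of the undifferentiated cells. Its change was 1.58 ± 0.0425 log2 (adjusted p = 1.65e-32). Fzd6 went the other way, at 7.4, 7.52 and 7.26 CPM in HFD, a change of -1.90 ± 0.098. Fzd2 rose by 0.27 ± 0.0343 and Fzd8 by 0.42 ± 0.0689, Fzd1 fell by 0.16 on the log2 scale, and Fzd3 was at 9.46, 8.82 and 9.52 CPM, a change of -0.53 ± 0.10. The rise of the scarce Fzd9, from 12 to 30 counts, was called at an adjusted p of 0.0465 by edgeR and was 0.65 log2 without CD mock replicate 3 (adjusted p = 0.278). It was also lost without HFD replicate 2 or 3, with total counts, with no filter, with the dispersion floor and with DESeq2, at adjusted p of 0.0513 to 0.135. Lrp5 fell from 64.9 ± 1.2 to 53.8 ± 1.71 CPM. Lrp6 was at 141, 143 and 147 CPM in HFD, below all CD libraries, but its call (adjusted p = 0.0172) was lost without CD mock replicate 2 (adjusted p = 0.118), without HFD replicate 1 (adjusted p = 0.0895) and with DESeq2 (adjusted p = 0.0657).

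Of the 5 antagonists tested with diet, 2 were higher, 2 lower and Sfrp4 was not called, beside 27.1% of all genes higher and 26.6% lower. Sfrp2 was at 30.9, 31.1 and 31 CPM in HFD against 85.6 ± 5.29 in CD (-1.47 ± 0.0492 log2), and Sfrp1 was at 419, 436 and 429.6 CPM (-0.50 ± 0.0206). Frzb, by contrast, was at 17.6, 16.5 and 16.6 CPM in HFD against 8.7 ± 0.441 in CD, and Dkk3 was at 43, 43 and 41 against 28.6 ± 2.19. These changes came to 0.95 ± 0.0979 and 0.57 ± 0.0598 log2, and neither gene's libraries overlapped. Axin2 was at 4.34, 4.17 and 4.3 CPM in HFD, 2.17-fold below CD (adjusted p = 5.51e-10). Tcf7 was at 1.35, 0.981 and 0.776 CPM against 4.22, 5.24 and 4.54 in CD, a change of -2.17 ± 0.27 log2, and Lef1 was not called. Ctnnb1 was at 696, 699 and 683 CPM, -0.29 ± 0.0214 log2 from CD.

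The other pathway genes were counted beside the same 27.1% of all genes higher and 26.6% lower. Further receptors rose in 6 of 7 with diet and 1 fell, with Gpc4 at 305 ± 4.3 CPM. Of 9 planar polarity genes 1 rose, 5 fell and 3 were not called. Prickle1 fell, at 22.1 ± 1.6 against 46 ± 1.87 CPM. Of 8 feedback inhibitors 2 rose, 3 fell and 3 were not called. Apcdd1 fell, at 12.9 ± 1.15 CPM in HFD. Of 10 nuclear partners 2 rose, 4 fell and 4 were not called. Tle3 fell, at 105 ± 1.36 CPM in HFD. Of 10 cytoplasmic transducers 4 rose, 2 fell and 4 were not called, and Wls fell by 0.14 on the log2 scale while Porcn rose by 0.69 ± 0.20.

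The make-up of markers also differed between the diets. The counts below stand beside 27.1% of all genes higher and 26.6% lower in HFD. All 10 mesothelial markers were lower in HFD, with sums of 663 to 674 against 2570.1 to 2602 CPM, and all 9 endothelial markers were lower, with 125 to 133 against 389.5 to 408 CPM. All 8 macrophage markers were higher, with 2114 to 2136 against 488 to 499 CPM. Pericyte markers were lower in 5 of 6 (183 to 185 against 299 to 314 CPM). Adipocyte markers were lower in 6 of 7 (101 to 107 against 189 to 194 CPM). Preadipocyte markers were lower in 8 of 10 with 2 higher, though their sum was higher, at 19327 to 19408 against 16972.1 to 17048.5 CPM. Defining markers such as Adgre1 of macrophages, at 16 CPM in CD and 116 in HFD, and Msln of the mesothelium, at 121 and 32, were above 0 in both diets. The part of these cell types in the differences of the Wnt genes between the diets, higher or lower, was not tested.

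The comparison of Itga5-High with Itga5-Low cells after adipogenic differentiation asked how the sorted cells differed. Wnt genes were mostly lower in Itga5-High cells. Sfrp1, Sfrp4, Rspo2, Rspo3, Lgr5, Fzd4 and Wnt9a were lower by more than 1 log2 unit, and Lrp5 and Dkk2 were higher by less. Of the 30 members tested of 13468 genes, 3 were higher in Itga5-High, 18 lower and 9 not called, beside 27% of all genes higher and 26.5% lower. Differences of 1 log2 unit or more were found upward in 0 and downward in 7, beside 2.03% and 2.09%. The median of the members was -0.27 log2, beside -0.00333 for all genes.

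Among the antagonists 4 of 6 were lower in Itga5-High cells, Dkk2 was higher and Frzb was not called. Of all genes 26.5% were lower and 27% higher. Sfrp1 was at 1296, 1277 and 1302 CPM in Itga5-High and 3139, 3153 and 3122 in Itga5-Low libraries. Sfrp2 was at 553, 565 and 555 against 772, 770.1 and 765 CPM, and Sfrp4 at 4.73, 5.56 and 6.12 against 15.4, 17.4 and 18.1 CPM. In each of these the Itga5-High libraries lay below all Itga5-Low libraries, by 2.43-fold for Sfrp1, 1.38-fold for Sfrp2 and 3.14-fold for Sfrp4. Dkk3 was at 57.2, 64.9 and 60.2 CPM in Itga5-High and 109, 102 and 106 in Itga5-Low (-0.80 ± 0.0403 log2, adjusted p = 4.8e-18). Dkk2, which binds the co-receptors and was too scarce to test in undifferentiated cells, was at 22.5 ± 1.68 against 17.7 ± 1.07 CPM (0.35 ± 0.0723 log2).

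Both R-spondins tested and the receptor Lgr5 were lower in Itga5-High cells. Rspo3 was at 6.19, 5.64 and 7.53 CPM in Itga5-High and 22.2, 21.6 and 23.4 in Itga5-Low, and Rspo2 at 2.19, 2.86 and 2.32 against 8.36, 6.1 and 6.43 CPM. Neither overlapped between the groups, and they changed by -1.80 ± 0.10 and -1.51 ± 0.19 log2. Their receptor Lgr5 was at 8.5, 8.17 and 8.36 CPM in Itga5-High and 20.6, 19.5 and 22.3 in Itga5-Low (-1.31 ± 0.0923 log2, adjusted p = 1.75e-14), while Lgr4, at 77.9 ± 1.55 and 79.7 ± 0.408 CPM, was not called. The 6 members of this table that were not tested were Wnt10b, Fzd9, Fzd10, Tcf7, Wif1 and Rspo1, the last with 11 and 25 counts. Wif1 had 6 and 5 counts and was seen in this table alone.

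**Figure D4:**
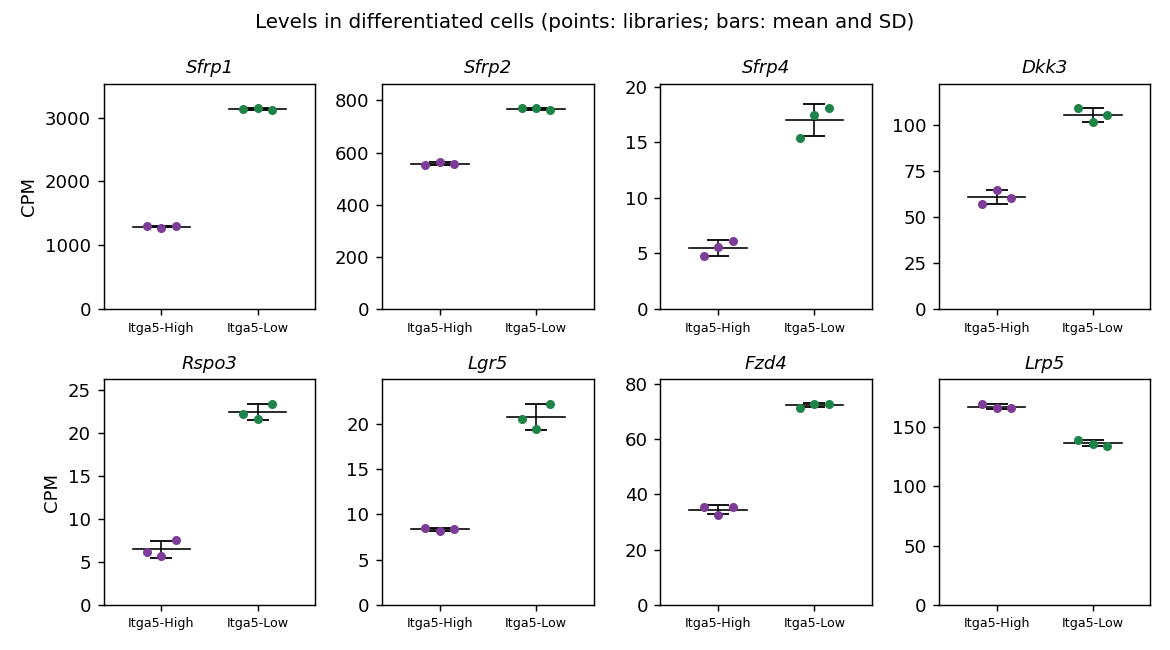
Levels of 8 members in Itga5-High and Itga5-Low differentiated cells (CPM, linear axis from 0), with 1 point per library and bars for mean and SD (n = 3). The groups do not overlap in any panel, and Lrp5 is the only one of the 8 that is higher in Itga5-High cells.

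Frizzled receptors were lower in 7 of 8 tested, beside 26.5% of all genes, and Fzd3 was not called. Fzd4 was at 35.6, 32.5 and 35.3 CPM in Itga5-High and 71.5, 72.9 and 73 in Itga5-Low, and Fzd5 at 34.3, 32.1 and 34.9 against 61.5, 59.1 and 59.97 CPM. These were the largest changes of the family, -1.07 ± 0.0442 and -0.83 ± 0.0456 log2. Fzd6 had 73 and 137 counts over the libraries, its groups overlapped, and its difference of -0.59 ± 0.24 log2 was no longer called without Itga5-Low replicate 2 (-0.38, adjusted p = 0.244), without Itga5-Low replicate 3 or Itga5-High replicate 1 or 2 (adjusted p of 0.0637 to 0.19), with DESeq2 (adjusted p = 0.113) or with the replicate number as a block (adjusted p = 0.0521). Fzd1, Fzd2, Fzd7 and Fzd8 differed by -0.18, -0.19, -0.33 and -0.24 log2. The co-receptors parted: Lrp6 was at 94.6, 100.3 and 98 CPM in Itga5-High and 144, 145 and 146 in Itga5-Low. Lrp5 was at 167 ± 2.23 against 136 ± 2.4 CPM. Lrp6 thus differed by -0.58 ± 0.0296 log2 and Lrp5 by 0.30 ± 0.0268, neither with overlap.

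**Figure D5:**
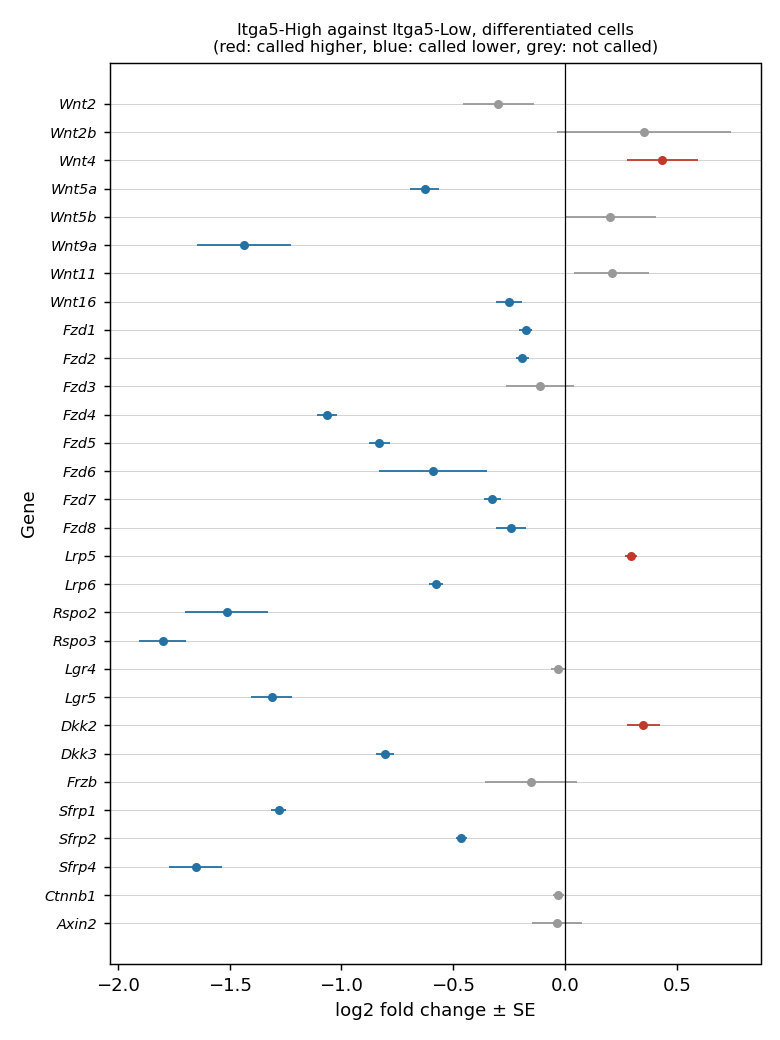
Log2 fold change ± SE (x axis) of the 30 tested members (rows, grouped by role) in Itga5-High against Itga5-Low cells, in red where called higher, blue where called lower and grey where not called. Rspo3 lies farthest to the left at -1.80, and the 3 members in red are Wnt4, Lrp5 and Dkk2.

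Of 8 ligands tested, 3 were lower in Itga5-High cells, 1 was higher and 4 were not called. Of all genes 26.5% were lower and 27% higher. Wnt5a was at 22.8, 19.96 and 19.9 CPM in Itga5-High and 32.1, 31.4 and 34.3 in Itga5-Low (-0.63 ± 0.0639 log2). The share of its counts from the upstream start was 43.1% to 69.7% in Itga5-High cells, below the 70.3% to 75.1% of the Itga5-Low libraries, and was not tested. Wnt9a was at 1.88, 1.6 and 1.57 against 4.09, 4.62 and 5.16 CPM (-1.44 ± 0.21). Wnt16 was at 25.1, 26.3 and 25.5 against 32.1, 28.9 and 30.4 CPM, a smaller difference of -0.25 ± 0.0584. Wnt4, called higher at 5.58, 5.81 and 4.63 against 4.15, 4.33 and 3.4 CPM (adjusted p = 0.0202), lost its call with DESeq2 (adjusted p = 0.067) and without any of 3 single libraries: Itga5-High replicate 1, Itga5-High replicate 2 and Itga5-Low replicate 3. Wnt2 and Wnt11 were not called, at 4.17 ± 0.631 against 5.14 ± 0.572 and 4.33 ± 0.629 against 3.74 ± 0.272 CPM.

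The target Axin2 did not follow the receptors and R-spondins. It was at 8.56, 8.002 and 9.02 CPM in Itga5-High and 9.6, 8.44 and 8.26 in Itga5-Low, overlapping (-0.04 ± 0.11 log2, 95% interval -0.26 to 0.18, adjusted p = 0.808). Ctnnb1 was at 483, 502 and 490.3 against 498, 499 and 508 CPM and was not called either, but was called lower with total counts (-0.07 log2, adjusted p = 0.00217). Tcf7 had 14 and 13 counts and was not tested, and Lef1 was absent from the table of differentiated cells. The other pathway genes were counted beside 27% of all genes higher and 26.5% lower. Both secretion genes were lower, Wls at 199 ± 4.95 against 242 ± 4.71 CPM. Further receptors were higher in 3, lower in 3 and not called in 1 of 7, with Ror1 at 39.3 ± 0.964 against 59.98 ± 2.06 CPM. Planar polarity genes were lower in 4 and not called in 3 of 7, with Prickle1 at 19.6 ± 0.358 against 30.7 ± 0.71 CPM. Feedback inhibitors were higher in 1, lower in 4 and not called in 3 of 8, nuclear partners higher in 3 and lower in 7 of 10, and cytoplasmic transducers higher in 3, lower in 5 and not called in 2 of 10.

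Markers of other cell types were low in differentiated cells. The counts below stand beside 27% of all genes higher and 26.5% lower in Itga5-High cells. Macrophage markers summed to 42.2 to 44.1 CPM in the Itga5-High libraries and 21.6 to 22.5 CPM in the Itga5-Low ones, with Ptprc absent from the table and Adgre1 at 0.172 and 0.26 CPM. Of the 4 tested, 2 were higher. The mesothelial markers Msln, Krt8 and Muc16 were absent, and the sum of the rest, 101 to 104 and 42.2 to 45.6 CPM, was mostly Krt19, at 99.3 and 40.1 CPM. Endothelial markers summed to 26.3 to 27.7 and 29.5 to 30.05 CPM, with 1 higher and 2 lower of 7 tested. Pericyte markers summed to 81.2 to 87 and 73.8 to 85 CPM, with 2 higher and 3 lower of 5 tested. Adipocyte markers were lower in 5 of 7 in Itga5-High cells and higher in 1, with sums of 4169 to 4198 and 4479 to 4528 CPM. Preadipocyte markers were lower in 5 of 10 and higher in 3, with sums of 39815 to 40092 and 37505 to 37722 CPM. Their part in the differences of the Wnt genes was not tested.

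Overlapping gene models limit some of these values, since the sources used here do not give the strandedness of the counting and reads of opposite strands could not be told apart. In the GENCODE vM21 annotation a gene on the opposite strand shares 17.8% of the exon bases of Fzd5 (Gm38058), 16.1% of Sfrp2 (Gm26771), 14.6% of Ctnnb1 (Ulk4), 13.7% of Lef1 (Gm43352), 13.1% of Rspo3 (Gm48159) and 8.8% of Wnt11 (Gm8398). For Wnt5a (Gm2670), Axin2 (Gm11670) and Fzd6 (Gm26704) it is 4.58%, 3.8% and 3.15%.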

How the data were processed

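Poly(A) RNA of the 18 libraries was sequenced by the authors, and the submitters' processing notes list STAR, featureCounts and fastp, without versions, and the build mm10. The deposited tables hold expected counts (estimated counts) per RefSeq transcript, with no scaling between libraries. The sources used here do not give the strandedness, the filter on low transcripts or how reads were split between transcripts.

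Columns were assigned to samples by their names. Counts were summed per gene symbol and rounded (Python 3.11.15, pandas 2.3.3, numpy 2.4.6). The 12 undifferentiated and 6 differentiated libraries were fitted separately with edgeR 4.0.16 in R 4.3.3 (filterByExpr, TMM, glmQLFit and glmQLFTest), which tested 14078 and 13468 genes. Benjamini-Hochberg adjustment ran over all genes tested. The dispersion was under 1e-04 for 3780 and 1746 genes, where p-values at very high counts are inexact. The total count of 11154449 to 17288608 per library limits scarce members through sampling noise, and counting intervals at 95% cover that error only.

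Per-library values were given for members with a group mean of at least 5 CPM that were called with a change of at least 1 log2 unit in any comparison, and for Axin2, Ctnnb1 and Lrp6. Of the other pathway genes up to 3 of smallest adjusted p per list were eligible to be named. Members, lists and tests were chosen with earlier results of these data known. Alternatives were DESeq2 1.42.0, other scalings, no filter, a dispersion floor, a replicate block and each library left out. The test was tried on simulated counts with the same dispersion for all genes and changes only in well-counted ones. That trial does not cover scarce members or genes of very low dispersion. Figures used matplotlib 3.10.9.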

Additional observations from a re-analysis of the deposited data

How the results depend on the processing

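The counts of members called higher and lower stayed within 1.5 times of the values above under all alternatives run. With 1 library left out, the members called higher and lower ranged over 12 to 12 and 16 to 16 for TGF-b1 against mock, 15 to 16 and 13 to 14 for SB431542 against TGF-b1, 9 to 10 and 13 to 15 for SB431542 against mock, 7 to 8 and 17 to 18 for diet, and 2 to 3 and 17 to 18 for Itga5-High against Itga5-Low. Of 126 called values of single members, 116 kept their direction and call in all alternatives. Scaling by total counts reversed 2 values, both for SB431542 against TGF-b1: Ctnnb1 at 0.13 log2 and Lgr4 at 0.14 log2. With that scaling the all-gene median went from -0.0165 to -0.164 log2 for TGF-b1 against mock, from 0.0375 to 0.295 for SB431542 against TGF-b1, from 0.0063 to 0.116 for SB431542 against mock and from -0.0077 to -0.0911 for diet, and the share of higher genes among all called genes from 49.4% to 31.4%, from 52% to 70%, from 50.1% to 67.7% and from 50.5% to 33.7%.

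Same-numbered libraries of different groups correlated in their deviations at -0.0245 to 0.00919 in undifferentiated and -0.0178 to 0.0211 in differentiated cells. Differently numbered ones did so at -0.0248 to 0.0301 and -0.0303 to 0.00919. No pairing by replicate number was seen, though deviations that are mostly counting noise could hide one. With the replicate number as a block, 17 in place of 18 members were lower in Itga5-High cells, through Fzd6, and the other 9 counts of called members were equal to those without the block. Depth limits Wnt10b, Lgr5, Fzd9, Sfrp4 and Lef1, each with at most 63 counts per group of undifferentiated cells.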
